A study of Mus musculus with 6 samples.

Results

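The 8 genes described here encode the TREM2 receptor, a related receptor, the adaptor and kinase that carry TREM2 signals into the cell, and proteins that mark lipid-associated macrophages. They are Trem2, Trem1, Tyrobp, Syk, Gpnmb, Lgals3, Cd9 and Spp1, taken by gene symbol from the 54446 entries of a mouse expression table. Their RNA was sequenced in macrophages grown in culture from the marrow of 6-week-old C57BL/6 mice (BMDMs), in 3 groups of 2 samples. Of these, 1 group received PBS, a buffer, and the others received KN93 at 5 µM or at 10 µM. KN93 is a small molecule that inhibits CaMKII and CaMKIV, kinases activated by calcium-bound calmodulin, and neither an inactive analogue nor a treatment time is named in the labels. No label ties the 2 samples of a group to separate animals or cultures, so the p-values cover only how far these particular samples differ, and that spread may be technical.

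TREM2 is a cell-surface receptor of myeloid cells that binds lipids, lipoproteins and debris of dying cells. It has almost no signalling part of its own and pairs with DAP12, the product of Tyrobp, whose tyrosine motif (an ITAM) recruits the kinase SYK once phosphorylated. Macrophages that take up much lipid, in fatty tissue, in atherosclerotic plaques and around damaged myelin, depend on TREM2 for a state marked by Gpnmb, Lgals3, Cd9 and Spp1, together with genes of lysosomes and lipid handling.

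Levels are in FPKM, fragments scaled to the length of the gene and the size of the library, so levels of different genes can be compared per length. Differences were tested with limma on log2(FPKM + 1) in a single fit of all 6 samples, and adjusted p-values are Benjamini-Hochberg values over the 12722 genes that reached 1 FPKM in 2 or more samples. A gene is said to have risen or fallen where its adjusted p was under 0.05. Of the 8 genes, 7 passed the filter, and Trem1 did not. The comparisons of 5 µM and of 10 µM with PBS share the PBS samples, and both dose steps share the 5 µM samples, so their results are not independent of each other.

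The fragment totals implied by the FPKM ran, in units of 1000000, from 24.2 to 28.4 per sample. Macrophage markers were present in every group, at lower summed levels with KN93. Of 14 macrophage markers, all were tested, and 9 fell and 2 rose at 5 µM, where 15.4% of all tested genes fell and 15.1% rose. At 10 µM 11 fell and 1 rose, against 22% and 28.5%. The summed level of the 14 markers went from 22646 to 23270 FPKM in the PBS samples to 16956 to 17433 at 5 µM and 9341 to 10239 at 10 µM. Among them, Adgre1 (F4/80) averaged 981, 674 and 341 FPKM in the PBS, 5 µM and 10 µM groups, while Spi1, the macrophage factor PU.1, averaged 108, 105 and 104 FPKM. Cd68, also among the 14, went the other way and rose at 5 µM, with values given below among the lysosomal genes. Markers of stromal cells, of which 12 of 14 were tested, summed to 2680 to 2744 FPKM in PBS, 891 to 1036 at 5 µM and 633 to 687 at 10 µM. Of the 12, 9 fell at 5 µM and 10 fell at 10 µM, against 15.4% and 22% of all tested genes, and 0 rose at either dose. Their median log2 changes were -1.38 and -1.75. Of 13 markers of lymphocytes, mast cells, platelets and red cells, 12 were under 1 FPKM in every sample. The remaining marker, Pf4, a platelet chemokine gene that macrophages can also express, fell from 967 ± 73.7 FPKM to 349 ± 58.3 at 5 µM (log2 change -1.48, adjusted p = 0.00097) and 120.0 ± 0.724 at 10 µM (-2.998, adjusted p = 4.18e-05). In these bulk samples a change in the number of a kind of cell and a change in RNA per cell cannot be told apart, and the part of these shifts in the results below was not tested.

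Across the 7 tested genes, 5 rose and none fell at 5 µM (Trem2, Gpnmb, Lgals3, Cd9 and Syk), against a background of 30.5% of all tested genes called and 15.1% that rose. At 10 µM, 4 rose (Gpnmb, Lgals3, Cd9 and Syk) and Tyrobp fell, where 50.5% of all tested genes were called, 28.5% upward and 22% downward. The median log2 change of the 7 genes was 0.37 at 5 µM and 0.38 at 10 µM, and that of all tested genes was 0.01 and 0.05. Between the doses, Lgals3 was higher and Tyrobp lower at 10 µM, with 19.9% of all tested genes called, 11.4% upward and 8.5% downward. Under median-of-ratios scaling the balance of these calls between the doses over all genes turned from 1455 upward and 1081 downward to 1097 upward and 1317 downward. The balance at 10 µM against PBS went from 3631 upward and 2796 downward to 2955 upward and 3219 downward under that scaling, and to 3724 and 3753 with voom on recovered fragments. At 5 µM voom called 1827 genes upward and 2908 downward, against 1919 and 1962. The call counts of the 7 genes depended on single samples: without any 1 sample in turn, 3 to 5 were called at 5 µM, 5 at 10 µM in every case, and at most 1 between the doses. All 8 genes had groups that did not overlap between 5 µM and PBS, as did 70% of all tested genes. At 10 µM against PBS all but Trem2 did, against 76.7% of all tested genes, and between the doses all but Spp1 did, against 63.7%.

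**Figure D1:**
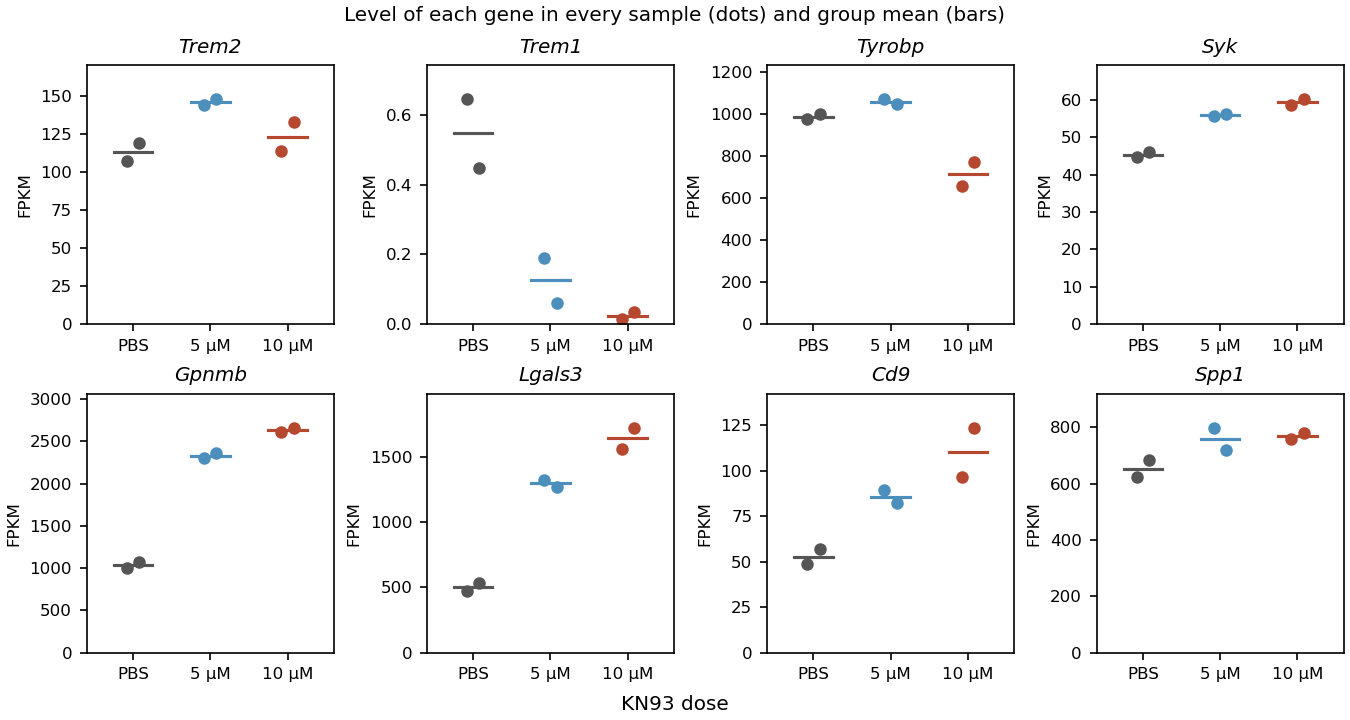
FPKM of the 8 genes in each sample, 1 panel per gene with its own linear axis. Points are the 2 samples of the PBS, 5 µM and 10 µM groups and bars are group means. Gpnmb, Lgals3, Cd9 and Syk were higher in all KN93 samples than in PBS, Tyrobp was lowest at 10 µM, and Trem1 lay under 1 FPKM throughout.

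Trem2, at positions 48346401 to 48354147 of the plus strand of chromosome 17 (GRCm38), encodes the receptor itself. The PBS samples held 107 and 119 FPKM, against 144 and 148 FPKM at 5 µM and 114 and 133 FPKM at 10 µM. Both 5 µM samples lay above every PBS and every 10 µM sample, while the PBS and 10 µM samples overlapped. The mean was 113 ± 8.35 FPKM (SD, n = 2) in PBS, 146 ± 2.69 at 5 µM and 123 ± 13.5 at 10 µM. Trem2 rose at 5 µM by a log2 change of 0.37 ± 0.09 (SE), an FPKM ratio of 1.29, with an adjusted p of 0.0296 in limma. At 10 µM its log2 difference from PBS was 0.12 (adjusted p = 0.315), and between the doses it was -0.25 (adjusted p = 0.109). The call at 5 µM was lost when the filter on low genes was dropped (adjusted p = 0.0911) and when any 1 sample of the groups compared was left out, with adjusted p-values of 0.138 and 0.0537 without PBS replicates 1 and 2 and of 0.0975 and 0.119 without 5 µM replicates 1 and 2. By level, Trem2 ranked 403 of the 12722 tested genes in PBS, 306 at 5 µM and 362 at 10 µM.

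Trem1, at positions 48232768 to 48246924 of the same strand and chromosome, encodes a receptor that also signals through DAP12 and amplifies inflammatory responses in neutrophils and monocytes. Its level was low in every sample: 0.645 and 0.448 FPKM in PBS, 0.190 and 0.0602 FPKM at 5 µM and 0.0138 and 0.0353 FPKM at 10 µM. The 3 groups did not overlap, PBS being the highest and 10 µM the lowest. These values stood for 52 and 38 fragments in PBS, 15 and 5 at 5 µM, with 1 and 3 at 10 µM. The level at 10 µM was 0.0467 times that of PBS, with a 95% interval of 0.0125 to 0.124 that covers counting error only, and at 5 µM it was 0.227 times (0.132 to 0.372). Trem1 was below the filter of the main test. Tested without that filter, Trem1 differed from PBS by -0.46 at 5 µM (limma adjusted p = 0.0458) and by -0.59 at 10 µM (adjusted p = 0.0128) on the log2(FPKM + 1) scale, which compresses such low values. With voom on the recovered fragments the log2 differences were -2.29 ± 0.51 (adjusted p = 0.0093) and -4.22 ± 0.76 (adjusted p = 0.00175).

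Trem1 is a gene of neutrophils as well as of monocytes, and neutrophil markers moved in the same direction. Of 12 such markers 7 were tested. At 5 µM 5 fell, against 15.4% of all tested genes, and at 10 µM all 7 fell, against 22%. The summed level of these markers was 194 to 197 FPKM in PBS, 111 to 120 at 5 µM and 61.1 to 67.4 at 10 µM. The defining genes Ly6g, Mpo, Elane, Retnlg and Cxcr2 were under 1 FPKM in every sample. The part of these cells in the Trem1 values was not tested.

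The genes of TREM receptors and their adaptors did not share a direction. Of 9 symbols listed as TREM receptors and adaptors, Trem2, Trem1 and Tyrobp included, 8 were found and 6 tested. At 5 µM 3 rose and 2 fell, against 15.1% and 15.4% of all tested genes. At 10 µM 2 rose and 3 fell, against 28.5% and 22%. At 10 µM Treml1, which encodes a receptor known from platelets, rose from 2.16 ± 0.17 to 5.74 ± 1.27 FPKM (log2 change 1.08, adjusted p = 0.00161), and at 5 µM it averaged 3.86 ± 0.291 FPKM. Treml4 fell at 10 µM from 1.28 ± 0.0851 to 0.204 FPKM (log2 change -0.92, adjusted p = 0.00164), with 0.419 FPKM at 5 µM. Treml2 averaged 3.63, 2.74 and 2.76 FPKM, and its call at 10 µM was lost without PBS replicate 1 (adjusted p = 0.0799), PBS replicate 2 (0.0697) or 10 µM replicate 2 (0.0659). Each of the 5 calls at 5 µM was lost without PBS replicate 1, with adjusted p-values of 0.138 for Trem2, 0.0673 for Treml1, 0.0904 for Hcst, 0.116 for Treml2 and 0.0654 for Treml4. Trem2, at over 100 FPKM, was the most abundant receptor of its cluster in each group, and its relatives lay below 10 FPKM.

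Tyrobp, at positions 30413760 to 30417585 of the plus strand of chromosome 7, encodes the adaptor DAP12, which carries the ITAM for TREM2, TREM1 and other receptors. Its level was 977 and 1002 FPKM in PBS, 1073 and 1047 FPKM at 5 µM and 659 and 772 FPKM at 10 µM. The 10 µM samples lay below all 4 other samples, and the 5 µM samples lay slightly above those of PBS. Group means were 989 ± 17.9, 1060.3 ± 18.1 and 715 ± 79.9 FPKM. Tyrobp fell at 10 µM by a log2 change of -0.47 ± 0.09 against PBS (adjusted p = 0.00658) and of -0.57 against 5 µM (adjusted p = 0.0104), whereas the difference of 0.10 between 5 µM and PBS did not pass the test (adjusted p = 0.431) and became -0.04 under quantile normalization. The call between the doses was lost without the filter on low genes (adjusted p = 0.0712) and without 5 µM replicate 1 (0.056) or 5 µM replicate 2 (0.055). With this fall Tyrobp still ranked 42 of 12722 genes by level at 10 µM, against 31 in PBS.

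Because TREM2 needs DAP12 at the membrane, the level of Trem2 was also set against that of Tyrobp within each sample. The ratio of Trem2 to Tyrobp FPKM was 0.110 and 0.119 in PBS, 0.135 and 0.141 at 5 µM, with 0.173 and 0.172 at 10 µM. The groups did not overlap and were ordered by dose, with means of 0.115 ± 0.00637, 0.138 ± 0.00489 and 0.172 ± 0.000382 (SD, n = 2). From 5 to 10 µM the ratio rose while mean Trem2 went from 146 to 123 FPKM and mean Tyrobp from 1060 to 715 FPKM. An exact two-sided permutation test gave p = 0.333 for each comparison, the smallest p that 2 samples against 2 can give. In all, 7 such ratios between genes were computed in 3 comparisons each, and with this number of samples none could reach a p of 0.05, adjusted or not. Hcst, which encodes DAP10, the adaptor that links the same receptors to PI3-kinase, averaged 13.2 ± 0.795 FPKM in PBS, 19.2 ± 1.09 at 5 µM (log2 change 0.51, adjusted p = 0.0177) and 19.2 ± 2.86 at 10 µM (0.50, adjusted p = 0.0111). Its call at 10 µM was lost without PBS replicate 1 (adjusted p = 0.0589), and that at 5 µM without the filter (0.0621), without PBS replicate 1 (0.0904) or 2 (0.0516) and without 5 µM replicate 1 (0.0549) or 2 (0.0884). The ratio of Hcst to Tyrobp was 0.0133 on average in PBS, 0.0181 at 5 µM and 0.0267 at 10 µM. Hcst itself averaged 19.2 FPKM at both doses, so from 5 to 10 µM this ratio followed the fall of Tyrobp. Fcer1g, the ITAM adaptor of Fc receptors, averaged 790.0, 821 and 703 FPKM and passed the test against PBS at 10 µM only with median-of-ratios scaling (adjusted p = 0.0417) and voom (0.0232).

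**Figure D2:**
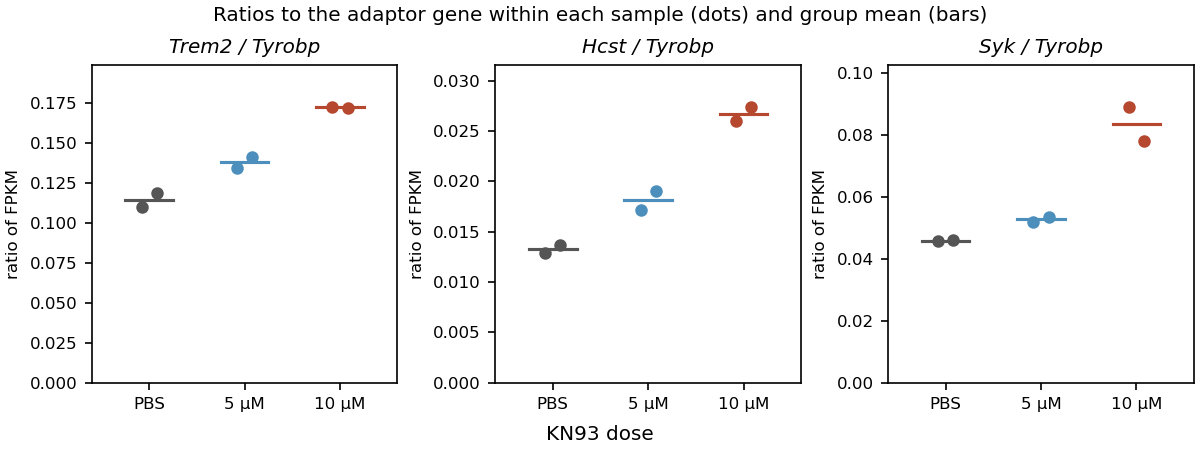
Ratios of FPKM within each sample, for Trem2, Hcst and Syk to Tyrobp, on linear axes that start at 0. Points are samples of the PBS, 5 µM and 10 µM groups and bars are group means. Trem2, Hcst and Syk relative to Tyrobp were ordered by dose without overlap, from 0.115 to 0.172 on average for Trem2. Between the doses mean Tyrobp fell from 1060 to 715 FPKM, while mean Trem2 went from 146 to 123 FPKM and Hcst stayed at 19.2 FPKM.

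Syk, at positions 52583173 to 52648792 of the plus strand of chromosome 13, encodes the tyrosine kinase that binds the phosphorylated ITAM. It was present at 44.6 and 46.2 FPKM in PBS, 55.6 and 56.2 FPKM at 5 µM and 58.8 and 60.2 FPKM at 10 µM. The samples of each group lay close together, with no overlap between groups and the highest values at 10 µM. Syk rose by log2 changes of 0.30 ± 0.04 at 5 µM (adjusted p = 0.00632) and 0.38 at 10 µM (adjusted p = 0.00115), FPKM ratios of 1.23 and 1.31. The difference of 0.09 between the doses did not pass the test (adjusted p = 0.21). Both calls against PBS held under every alternative processing tried. Relative to Tyrobp, which fell between the doses, Syk averaged 0.0459 in PBS, 0.0528 at 5 µM and 0.0836 at 10 µM.

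The genes that act with SYK moved in both directions. Of 34 tested genes of ITAM signalling, Syk included, 7 rose and 12 fell at 5 µM, against 15.1% and 15.4% of all tested genes. At 10 µM 11 rose and 13 fell, against 28.5% and 22%. The medians were -0.07 and -0.05 against 0.01 and 0.05 for all genes. Lyn, a Src-family kinase that phosphorylates ITAMs and also inhibitory receptors, fell from 81.7 ± 3.2 FPKM to 55.1 ± 0.303 and 45.6 ± 2.19 (log2 change -0.83 at 10 µM, adjusted p = 0.000165). The adaptors moved apart: Lcp2 (SLP-76) fell from 24.1 FPKM in PBS to 14.7 and 11.9 FPKM. Lat2 (NTAL) rose from 24.0 ± 0.649 FPKM to 53.7 ± 0.566 and 95.1 ± 3.92, and Blnk (SLP-65) rose from 9.9 FPKM to 18.9 and 20.2 FPKM. Among the lipid enzymes downstream, Pik3cd and Pik3cg, which encode PI3-kinase catalytic subunits, fell to 17.7 and 8.05 FPKM at 10 µM from 30.5 and 14.3 FPKM in PBS. Pik3cb, the gene of another catalytic subunit, rose from 5.54 to 8.17 FPKM (log2 change 0.49, adjusted p = 0.00485). The regulatory subunit genes split, with Pik3r5 up from 41.9 to 53.7 FPKM and Pik3r1 down from 13.4 to 9.52 FPKM at 10 µM. Inpp5d (SHIP1), a phosphatase that opposes PI3-kinase, fell at 10 µM from 46.2 to 29.5 FPKM, while Plcg2, the phospholipase used by TREM2, averaged 40.2, 44.1 and 39.4 FPKM and passed no test against PBS.

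Genes for TREM2 ligands and for the release of TREM2 from the membrane fell more often than they rose. Of 9 tested, 2 rose and 5 fell at each dose. The medians of the 9 were -0.25 at 5 µM and -0.51 at 10 µM. Over all tested genes 15.1% rose and 15.4% fell at 5 µM, and 28.5% rose and 22% fell at 10 µM. Apoe, the lipoprotein component that binds TREM2, fell from 6403 ± 359 FPKM to 4653 ± 5.17 at 5 µM (log2 change -0.46, adjusted p = 0.035) and 3448 ± 504 at 10 µM (-0.90, adjusted p = 0.00195). Its calls were lost without the filter on low genes (adjusted p = 0.475 and 0.103), and that at 5 µM also without PBS replicate 1 (0.101) or 2 (0.156) and without 5 µM replicate 1 (0.117) or 2 (0.116). Lpl, lipoprotein lipase, fell from 40.3 ± 0.109 to 28.2 ± 1.08 and 12.3 ± 0.0264 FPKM. Adam10, a protease that sheds the outer part of TREM2, fell from 68.1 ± 2.17 to 45.8 ± 0.514 and 32.8 ± 1.55 FPKM, with a log2 change of -1.03 at 10 µM (adjusted p = 7.55e-05). Adam17, which can cleave the same receptor, averaged 43.2, 40.7 and 41.9 FPKM and passed no test against PBS. Members of the Ms4a cluster, which is known to influence soluble TREM2, split: at 10 µM Ms4a4a fell from 427 to 287 FPKM and Ms4a6d rose from 226 to 330.5 FPKM.

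Gpnmb, Lgals3 and Cd9, the lipid-associated genes that rose at both doses, differed in the letters just upstream of their starts. Their RefSeq promoters (GRCm38.p6), 250 bases ending at the base before the start, are shown because these genes rose together. Motifs in capitals were found on either strand in a search for CACGTG and CATGTG, E-boxes of the kind bound by MiT/TFE factors, TGANTCA (AP-1), GAGGAAG (PU.1) and TGGAAA (NFAT). These letters were present in 6.02%, 12.25%, 6.75%, 10.61% and 18.58% of 32851 mouse promoters of the same length. The windows were chr6:49036268-49036517 on the plus strand for Gpnmb, chr14:47373610-47373859 on the plus strand for Lgals3 and chr6:125494761-125495010 on the minus strand for Cd9. GENCODE places the outermost start of Lgals3 and of Cd9 further upstream than RefSeq, so the Lgals3 window and the last bases of the Cd9 window lie within the genes as GENCODE bounds them.
Gpnmb: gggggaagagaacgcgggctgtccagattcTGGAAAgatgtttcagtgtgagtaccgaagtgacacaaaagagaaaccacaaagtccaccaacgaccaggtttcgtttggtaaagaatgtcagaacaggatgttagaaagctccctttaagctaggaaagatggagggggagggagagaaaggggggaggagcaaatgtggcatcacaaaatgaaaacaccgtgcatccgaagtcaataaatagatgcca
Lgals3: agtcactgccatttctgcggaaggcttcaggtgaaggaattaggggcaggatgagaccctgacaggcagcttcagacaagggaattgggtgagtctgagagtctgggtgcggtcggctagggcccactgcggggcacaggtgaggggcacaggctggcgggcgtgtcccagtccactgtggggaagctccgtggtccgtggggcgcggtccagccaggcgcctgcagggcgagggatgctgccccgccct
Cd9: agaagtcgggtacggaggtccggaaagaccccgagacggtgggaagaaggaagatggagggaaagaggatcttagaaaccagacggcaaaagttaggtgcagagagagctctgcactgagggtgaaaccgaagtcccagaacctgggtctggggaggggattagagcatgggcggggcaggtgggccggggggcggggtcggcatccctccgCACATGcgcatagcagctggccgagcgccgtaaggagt
The Gpnmb window held TGGAAA at 220 bases before the start, the Cd9 window held CACATG, which is CATGTG on the other strand, at 38 bases before the start, and the Lgals3 window held none of the searched letters. No motif was found in more than 1 of the 3 windows, and such a match or its lack says nothing about binding.

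Gpnmb, at positions 49036546 to 49070929 of the plus strand of chromosome 6, encodes a glycoprotein of lysosomes and the cell surface. Its level was 1004 and 1069 FPKM in PBS, 2298 and 2359 FPKM at 5 µM and 2615 and 2665 FPKM at 10 µM. All KN93 samples lay far above the PBS samples, and the 10 µM samples lay above those at 5 µM. Means were 1037 ± 46.4, 2329 ± 42.9 and 2640.2 ± 35.2 FPKM, ratios to PBS of 2.25 and 2.55. The log2 change was 1.17 ± 0.07 at 5 µM (adjusted p = 0.000452) and 1.35 at 10 µM (adjusted p = 7.04e-05). Between the doses the difference of 0.18 did not pass the test (adjusted p = 0.113), though it did with voom on recovered fragments (adjusted p = 0.0288). Gpnmb ranked 29 by level among 12722 genes in PBS, 13 at 5 µM and 10 at 10 µM, so it was among the most abundant transcripts of the KN93 samples.

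Lgals3, at positions 47367751 to 47386160 of the plus strand of chromosome 14, encodes galectin-3, a sugar-binding protein that gathers at damaged lysosomes and is also secreted. Its level was 473 and 534 FPKM in PBS, 1321 and 1271 FPKM at 5 µM and 1561 and 1722 FPKM at 10 µM. The 3 groups did not overlap and were ordered by dose. With means of 504 ± 43, 1296 ± 35.9 and 1642 ± 114 FPKM, Lgals3 rose by a log2 change of 1.36 ± 0.09 at 5 µM (adjusted p = 0.000586) and 1.70 at 10 µM (adjusted p = 7.55e-05). These were the largest changes among the 7 tested genes, and Lgals3 stood at rank 53 from the top of 12722 genes by log2 change at 5 µM and at rank 107 at 10 µM. The step of 0.34 between the doses was called (adjusted p = 0.0457), but the call was lost in 11 of 15 alternatives, with adjusted p-values of 0.00879 to 0.219 over them. The losses took in median-of-ratios scaling (0.0663) and the removal of any 1 of the 6 samples.

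Other galectins did not all share the direction of galectin-3. Of 10 galectin genes, Lgals3 included, 6 were tested. At 5 µM 3 rose and 1 fell, against 15.1% and 15.4% of all tested genes. At 10 µM 3 rose and 2 fell, against 28.5% and 22%. The medians of the 6 were 0.16 and 0.17. Lgals3bp, which encodes a secreted partner of galectin-3, rose at 10 µM from 944 to 1282 FPKM (log2 change 0.44, adjusted p = 0.00218). Lgals1, the other abundant galectin of these cells, averaged 635 FPKM in PBS and fell to 485 FPKM at 10 µM (log2 change -0.39, adjusted p = 0.0101), a call lost without the filter (0.0508) and without PBS replicate 1 (0.0513). The FPKM ratio of Gpnmb to Lgals3 was 2.12 and 2.0 in PBS, 1.74 and 1.86 at 5 µM, with 1.67 and 1.55 at 10 µM, lower in every KN93 sample than in either PBS sample. The exact permutation p of that ratio was 0.333 against PBS at each dose, the smallest possible.

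Cd9, at positions 125460266 to 125494791 of the minus strand of chromosome 6, encodes a tetraspanin, a membrane protein that organises other proteins and marks lipid-associated macrophages. Cd9 values were 48.6 and 57.0 FPKM with PBS, 89.5 and 82.1 FPKM with 5 µM KN93, and 96.7 and 124 FPKM with 10 µM. The groups did not overlap, and the 10 µM samples were the most spread. Cd9 rose from a mean of 52.8 ± 5.91 FPKM to 85.8 ± 5.20 and 110.2 ± 19.1 FPKM, by log2 changes of 0.69 ± 0.13 (adjusted p = 0.0146) and 1.04 (adjusted p = 0.00179). Between the doses the difference of 0.35 did not pass the test (adjusted p = 0.125). At 5 µM the test was missed when low genes were kept in (adjusted p = 0.0559), without PBS replicate 1 (0.0726), without 5 µM replicate 1 (0.0737) and without 5 µM replicate 2 (0.0517). Exons of the unnamed gene Gm26728, at up to 2.61 FPKM, overlap Cd9 on the other strand, and no source used here says whether strand was used in counting.

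Of 24 tetraspanin genes, Cd9 included, 16 were tested, and 5 rose and 4 fell at 5 µM, where 15.1% of all tested genes rose and 15.4% fell. At 10 µM 7 rose and 5 fell, against 28.5% and 22% of all tested genes. The median log2 change of the 16 was 0.06 at 5 µM and 0.13 at 10 µM, against 0.01 and 0.05 for all genes. Cd63, a tetraspanin of late endosomes and lysosomes, rose from 95.5 ± 5.4 FPKM to 161 ± 7.59 and 169 ± 13, and Cd82 rose from 14.2 FPKM to 24.2 and 30.4 FPKM. Cd53 rose as well, reaching 344 FPKM at 10 µM from 232 FPKM in PBS. Cd81, a tetraspanin that shares partners with CD9, fell at 10 µM from 30.5 to 22.8 FPKM (log2 change -0.41, adjusted p = 0.00673) and averaged 23.1 FPKM at 5 µM. The ratio of Cd9 to Cd81 was 1.55 and 1.92 in PBS, 3.65 and 3.8 at 5 µM, with 4.10 and 5.65 at 10 µM, without overlap between the groups. The exact permutation p of that ratio was 0.333 in each comparison. Against Cd63, the ratio of Cd9 was 0.530 and 0.573 in PBS and 0.539 and 0.529 at 5 µM, which overlapped (exact permutation p = 0.667). At 10 µM the ratio to Cd63 was 0.604 and 0.693, above all other samples (exact permutation p = 0.333 against PBS).

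Spp1, at positions 104435118 to 104441050 of the plus strand of chromosome 5, encodes osteopontin, a secreted protein that binds integrins and CD44. Spp1 stood at 623 and 684 FPKM in PBS, 799 and 718 FPKM at 5 µM and 757 and 781 FPKM at 10 µM. All KN93 samples lay above the PBS samples, but the lower 5 µM sample by a small margin, and the doses overlapped. Means were 654 ± 43, 759 ± 57.3 and 769 ± 16.8 FPKM, ratios to PBS of 1.16 and 1.18. The log2 differences of 0.21 ± 0.08 at 5 µM (adjusted p = 0.0966) and 0.24 at 10 µM (adjusted p = 0.0532) did not pass the test. They did under quantile normalization, at 0.36 (adjusted p = 0.0121) and 0.53 (adjusted p = 0.0016), and at 10 µM also with a filter of 5 FPKM (0.0405) and with voom (0.0332).

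Spp1 is also expressed by osteoblasts, osteoclasts and stromal cells. Of 6 osteoblast markers 3 were tested and 2 fell at each dose, with a summed level of 7.51 to 8.44 FPKM in PBS and 2.82 to 3.33 FPKM over the KN93 samples, and Dmp1 at 0 in every sample. Of 10 osteoclast markers 6 were tested, 4 rose and 1 fell at 5 µM and 4 rose and 2 fell at 10 µM, with summed levels of 214 to 239 FPKM over all samples. The part of such cells in the Spp1 values was not tested. Of 10 tested receptors and partners of osteopontin, 9 fell and 1 rose at each dose, with medians of -0.52 and -0.89. Over all tested genes 15.1% rose and 15.4% fell at 5 µM, and 28.5% rose and 22% fell at 10 µM. Cd44 fell from 75.7 FPKM to 53.3 and 38.8 FPKM, Itga9 fell from 7.78 to 2.72 and 0.699 FPKM, and Itgb5 fell from 243 to 171 and 97.3 FPKM. The gene that rose was Itgb3, at 1.55 FPKM in PBS and 7.41 FPKM at 10 µM (log2 change 1.72, adjusted p = 3.26e-05). At 5 µM it averaged 2.07 FPKM, and its call there (adjusted p = 0.0259) was lost without PBS replicate 1 (0.0705) or 2 (0.122) and without 5 µM replicate 1 (0.0772) or 2 (0.115). It was lost as well with no filter (0.067), a filter of 5 FPKM (0.0599), only the 2 groups compared (0.0578) and the replicate block (0.0501).

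**Figure D3:**
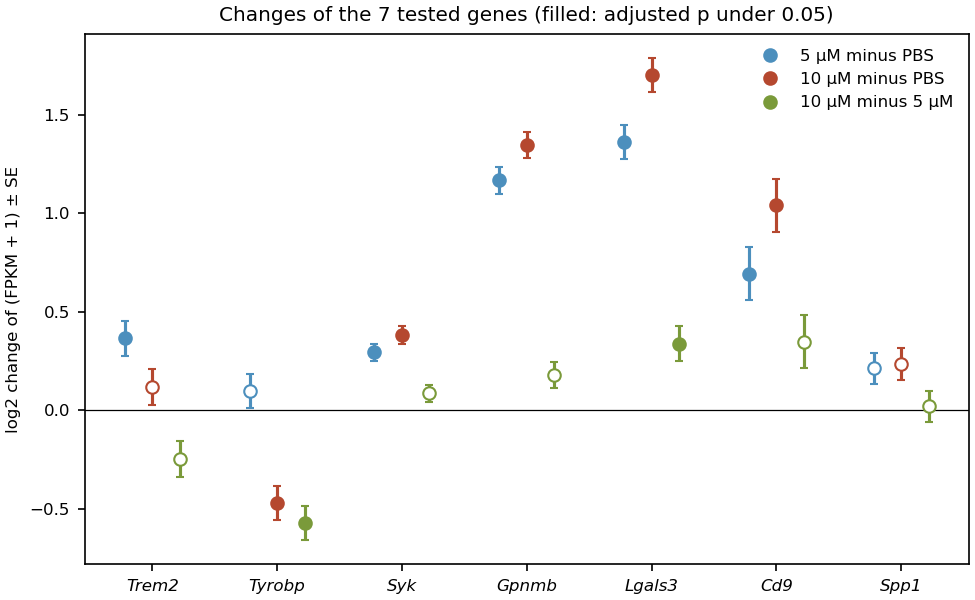
Log2 change of the 7 tested genes on the log2(FPKM + 1) scale at 5 µM and 10 µM against PBS and between the doses. Bars are standard errors from limma, and filled points passed an adjusted p of 0.05. Lgals3 and Gpnmb rose most, with changes of 1.70 and 1.35 at 10 µM, and Tyrobp fell at 10 µM.

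The dose steps were compared directly, as the change from 5 to 10 µM minus the change from PBS to 5 µM. Of the 7 tested genes 2 differed between the steps, both with a negative difference, which for these rising genes is a smaller later step. Over all tested genes 5.36% were called, 2.88% with a positive and 2.48% with a negative difference. The sign alone does not rank the steps, since a gene that fell and then levelled also has a positive difference. The difference was -0.99 ± 0.12 for Gpnmb (adjusted p = 0.0231) and -1.02 ± 0.15 for Lgals3 (adjusted p = 0.031). Both genes thus gained most of their change by 5 µM. For Tyrobp the difference of the steps was -0.67 ± 0.15 (adjusted p = 0.0638) and for Trem2 it was -0.61 ± 0.16 (adjusted p = 0.0817), neither of which passed the test. Spp1, Cd9 and Syk gave -0.19, -0.35 and -0.21, with adjusted p-values of 0.432, 0.405 and 0.162. The Gpnmb and Lgals3 calls were lost without the filter (adjusted p = 0.183 and 0.136). The Gpnmb call was also lost without any 1 sample (0.0532 to 0.167) other than 10 µM replicate 2 (0.0483), and the Lgals3 call without any 1 of the 6 samples (0.0508 to 0.179). Trem2 passed the test with voom (0.0365), and Tyrobp passed it with voom (0.0186), with a filter of 5 FPKM (0.0409) and without 10 µM replicate 2 (0.0483).

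By order of level, Gpnmb, Tyrobp, Spp1 and Lgals3 were the most abundant of the 8 genes in PBS, followed by Trem2, Cd9, Syk and Trem1. Gpnmb (1004 to 1069 FPKM) and Tyrobp (977 to 1002 FPKM) lay close there without overlap, with means of 1037 ± 46.4 and 989 ± 17.9 FPKM. The difference between these 2 genes was not tested. At 10 µM the order was Gpnmb, Lgals3, Spp1, Tyrobp, Trem2, Cd9, Syk and Trem1. In that group the ranges of Spp1 (757 to 781 FPKM) and Tyrobp (659 to 772 FPKM) overlapped, as did those of Trem2 (114 to 133 FPKM) and Cd9 (96.7 to 124 FPKM). Lgals3 passed both Tyrobp and Spp1 already at 5 µM, where its 2 samples exceeded all samples of either gene.

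The wider set of lipid-associated and disease-associated macrophage genes rose more often than it fell, but was split. All 40 listed genes, none of them among the 8 above, were tested. At 5 µM 21 rose and 9 fell, against 15.1% and 15.4% of all tested genes. At 10 µM 18 rose and 12 fell, against 28.5% and 22%. The median log2 change of the 40 was 0.29 at 5 µM and 0.11 at 10 µM, against 0.01 and 0.05 for all genes. Between the doses 5 rose and 9 fell, against 11.4% and 8.5% of all tested genes. For the difference between the dose steps, 1 was called with a positive and 14 with a negative difference, against 2.88% and 2.48%. The median of that difference over the 40 was -0.46, against 0.03 for all genes. Genes of lysosomes and lipid binding were among those that rose. Cst7 (cystatin F) rose from 2.79 ± 0.206 FPKM to 20.5 ± 0.3 and 30.1 ± 1.25, Fabp4 from 6.83 to 35.5 and 76.2 FPKM, and Fabp5 from 203 to 568 and 616 FPKM. The lysosomal genes Cd68, Ctsz and Psap averaged 851, 1443 and 4231 FPKM in PBS and rose to 1520.2, 2752 and 7531 FPKM at 5 µM. The log2 change of Psap was 0.83 at 5 µM and 0.74 at 10 µM, and both calls were lost without the filter (adjusted p = 0.233 and 0.223).

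Other genes of the same state fell. Abca1, which exports cholesterol, fell from 72.4 ± 4.26 FPKM to 32.9 ± 1.34 and 10.3 ± 0.732 FPKM, and Lpl and Apoe fell as given above. Ccl6, a chemokine, fell from 256 FPKM to 149.9 and 30.6 FPKM. Clec7a (dectin-1), which signals through SYK, rose at 5 µM from 96.7 ± 10.4 to 141 ± 0.776 FPKM (log2 change 0.54, adjusted p = 0.0132) and stood at 91.3 ± 10.5 FPKM at 10 µM, like Trem2 highest at the lower dose. That call was lost without PBS replicate 1 (0.0613), 5 µM replicate 1 (0.0598) or 5 µM replicate 2 (0.0647). Itgax (CD11c) had the same order of means, at 9.99, 13.3 and 9.01 FPKM.

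Genes that are lowered when macrophages or microglia enter TREM2-dependent states mostly fell. Of 15 tested, 9 fell and 4 rose at 5 µM, against 15.4% and 15.1% of all tested genes. At 10 µM 11 fell and 2 rose, against 22% and 28.5%. The medians of the 15 were -0.49 and -0.99. Cx3cr1, the fractalkine receptor, fell from 39.9 ± 5.13 FPKM to 2.69 and 0.342 FPKM, Tmem119 from 6.80 to 2.24 and 0.989 FPKM, and Fcrls from 51.6 to 19.1 and 15.8 FPKM. Csf1r stands both in this list and among the macrophage markers, and the summed macrophage markers given above moved the same way.

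Genes for the MiT/TFE factors, which drive lysosomal genes and Gpnmb, and for the folliculin complex that restrains them rose more often than they fell. Of 9 tested, 6 rose and 1 fell at 5 µM, against 15.1% and 15.4% of all tested genes. At 10 µM 6 rose and 2 fell, against 28.5% and 22%. The medians of the 9 were 0.46 and 0.63. Rragd, a GTPase that recruits these factors to lysosomes, rose from 1.36 ± 0.5 FPKM to 7.08 ± 0.128 and 12.7 ± 0.489, Rragc from 53.8 to 82.4 and 107 FPKM, and Fnip2 from 32.9 to 64.6 and 88.3 FPKM. The factor genes themselves differed: Tfeb rose at 10 µM from 5.35 to 8.82 FPKM, and Tfec fell from 6.18 to 4.47 and 2.65 FPKM. Mitf averaged 10.9, 10.8 and 12.6 FPKM with adjusted p-values of 0.839 and 0.0554 against PBS, and Tfe3 fell at 10 µM from 16.1 to 13.5 FPKM (log2 change -0.24, adjusted p = 0.00626).

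**Figure D4:**
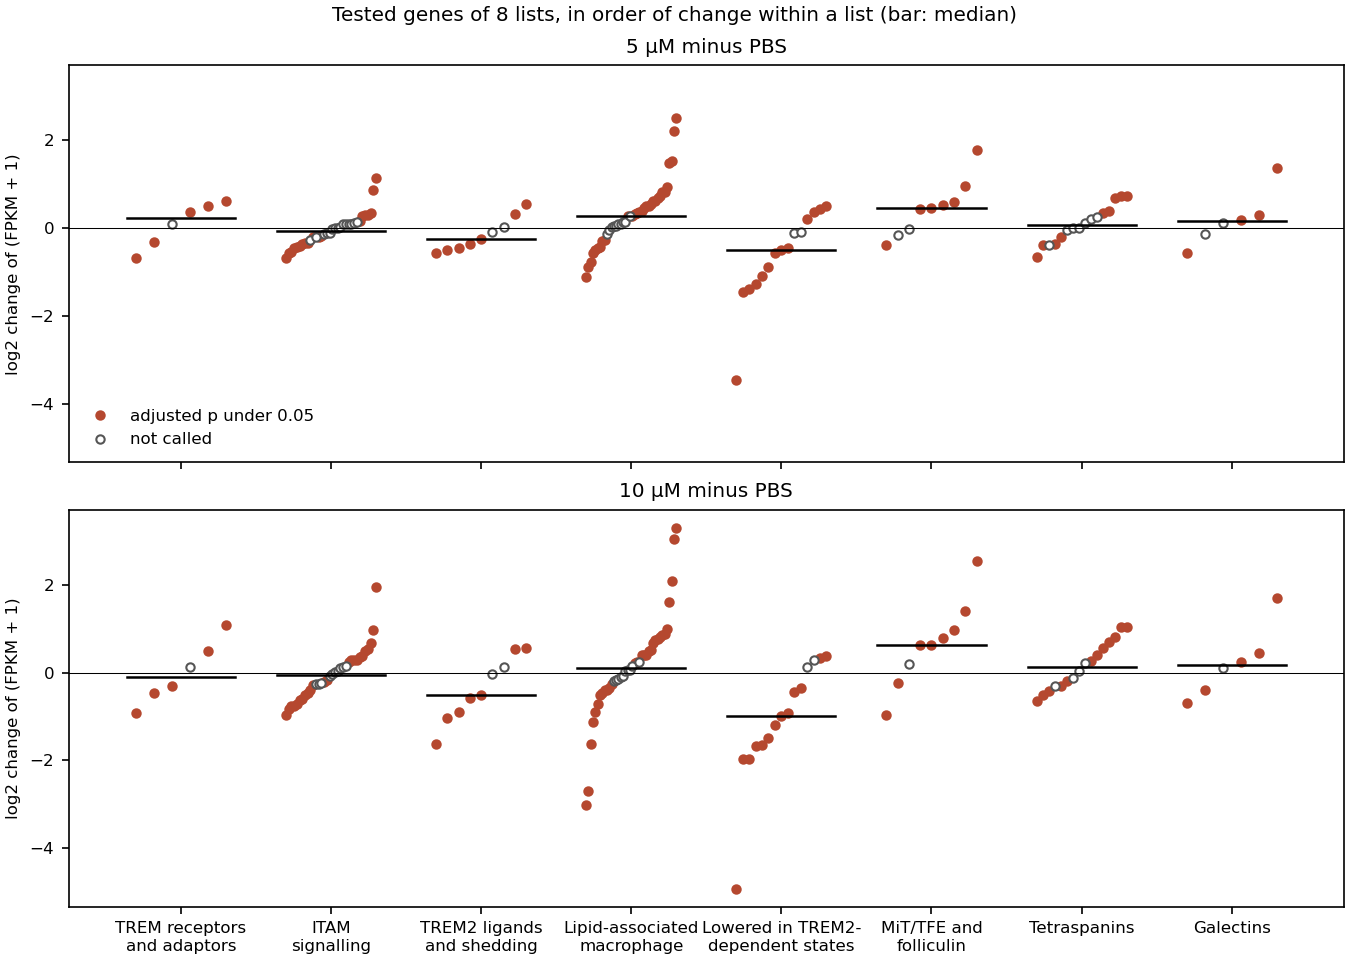
Log2 change of every tested gene of 8 lists at 5 µM (upper panel) and 10 µM (lower panel) against PBS, on the log2(FPKM + 1) scale. Each point is a gene, in order of change within its list and filled where its adjusted p was under 0.05, and the bar is the list median. At 10 µM the medians ran from -0.99 for genes lowered in TREM2-dependent states to 0.63 for the MiT/TFE and folliculin genes.

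For each tested gene, the genes of most similar pattern were found by the Euclidean distance of log2(FPKM + 1) over the 6 samples, centred on the PBS mean. Nearest to Trem2 were Smpdl3a, a lipid-degrading lysosomal enzyme gene (distance 0.0854), with means of 237, 305 and 257 FPKM, and Bcs1l (0.0994). Nearest to Tyrobp were Cd48 (0.183), at 95.1, 98.6 and 70.9 FPKM, and Il17ra (0.184). Plxnd1 (0.119) and Pdp1 (0.121) were nearest to Gpnmb, and Flvcr1 (0.208) and Tbc1d2 (0.230) to Lgals3. Creg1, a lysosomal glycoprotein gene, was nearest to Cd9 (0.0956), with means of 219, 351 and 440.3 FPKM, before Tmem154 (0.173). Spp1 lay nearest to Rab19 (0.0551) and Tcea2 (0.0665), and Syk to Chmp7 (0.0390) and Vps8 (0.0401), genes with small differences between groups.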

How the data were processed

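Total RNA of the 6 samples had been sequenced on Illumina libraries, per the labels. The authors deposited 1 table of FPKM, with no stated further scaling, and column names carry a prefix, DXM, that no label explains. Reads were aligned with HISAT2 to GRCm38, per the submitters' processing notes. The counting tool, annotation and use of strand were not given in the sources used here, so fragments of overlapping genes cannot be told apart. Gene IDs were matched to GENCODE M21 for 54409 of 54446 entries (99.93%). FPKM times exon length gave whole fragments, within 0.1, for 98.8% to 99% of low values, from which totals and fragments were recovered.

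Genes that reached 1 FPKM in 2 or more samples were fitted as log2(FPKM + 1) with limma 3.58.1 in R 4.3.3 (group of 3 levels, eBayes with an intensity trend, 3 residual and 2.72 prior degrees of freedom). Two-sided p-values were adjusted by Benjamini-Hochberg over 12722 genes, with a threshold of 0.05. Fold changes of low genes are understated by the pseudocount of 1 FPKM. The code was tested on simulated data. Promoter sequences are from RefSeq, and Tyrobp had no entry.

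The members and lists were chosen with earlier results of these data known. All 8 members were to be named, with up to 4 genes per list by the smallest p at 10 µM and 2 genes of nearest pattern per member. Other list genes in the text were chosen after their values were seen. Lists overlap in part, and list counts and medians have no test. Tried in turn were no filter, a pseudocount of 0.1 FPKM, a filter of 5 FPKM, median-of-ratios scaling, quantile normalization, no intensity trend, only the 2 groups compared, a replicate block and each sample left out. voom on genes with at least 10 recovered fragments in at least 2 samples (16948 genes) was added after seeing the data.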

Additional observations from a re-analysis of the deposited data

How the results depend on the processing

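Against PBS, the Gpnmb, Lgals3 and Syk calls at both doses and the Cd9 and Tyrobp calls at 10 µM held under all 15 alternatives. Without single samples, the genes called ranged from 1897 to 3856 at 5 µM (3881 with all samples), from 4575 to 5977 at 10 µM (6427) and from 869 to 1922 between the doses (2536), and members called from 3 to 5, from 5 to 5 and from 0 to 1, and from 0 to 2 for the difference between the dose steps. With no filter, 1350 genes and 0 members were called between the doses and 0 members for the dose steps. Between the doses, 1 member in place of 2 was called with median-of-ratios scaling, no intensity trend, only the 2 groups or the replicate block, and voom called 4 members for the dose steps in place of 2. The cause was not tested. Directions turned only in values that were never called: Tyrobp at 5 µM under quantile normalization (-0.042), and Spp1 between the doses with median-of-ratios scaling (-0.023), and, over the samples left out, from -0.056 without 5 µM replicate 2 to 0.098 without 5 µM replicate 1, with -0.0014 without 10 µM replicate 2. The values gave no sign that replicate numbers pair the samples, with correlations of replicate differences of -0.055, 0.014 and 0.037. No label says whether the samples were prepared in pairs. The replicate block called 3409, 6023 and 2079 genes and 5, 5, 1 and 2 members. Trem1, with 1 to 52 fragments per sample, is the gene whose values depth limits most.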

Other observations

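Receptors other than the TREM family that use DAP12 or the Fc receptor gamma chain were counted in the same way. Of 15 tested, 3 rose and 6 fell at 5 µM, where 15.1% of all tested genes rose and 15.4% fell, and 2 rose and 8 fell at 10 µM, against 28.5% and 22%. Their medians were -0.04 and -0.31, against 0.01 and 0.05 for all genes. Csf1r, the receptor for the macrophage growth factor CSF1, fell from 649 ± 10.7 FPKM to 442 ± 3.43 and 345 ± 25 FPKM (log2 change -0.91 at 10 µM, adjusted p = 0.000222). Pilrb1 and Pilrb2, activating receptors that pair with DAP12, fell from 15.7 and 14.9 FPKM to 0.832 and 1.36 FPKM at 10 µM. These paralogs are close in sequence, so the split of fragments between them is uncertain. Clec4e (Mincle), which signals through the Fc receptor gamma chain and SYK, rose instead, from 11.8 ± 1.45 FPKM to 17.8 ± 1.55 and 66.0 ± 0.144 FPKM, with a log2 change of 2.39 at 10 µM (adjusted p = 3.99e-05).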
